A study of Mus musculus with 4 samples.

Results

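Yap1 and Wwtr1 (the gene of Taz), the Tead transcription factors and their Vgll cofactors were examined in freshly isolated mouse satellite cells. These muscle stem cells express Pax7 and came from Control mice and mice with a conditional knockout (cKO) of the splicing regulator Rbfox2. The members were the rows of the deposited count and TPM tables whose gene name was Yap1, Wwtr1, Tead1, Tead2, Tead3, Tead4, Vgll2, Vgll3, Vgll4 or Ccn2. All 10 names were found, each in 1 row, among the 55487 genes of the tables. Vgll2 was chosen by its higher count in the knockout in these same libraries. Its difference is therefore given as a description, with no test. The other 9 genes were taken as its partners, relatives and a target, and all 10 passed the filter on low counts. Vgll1, the remaining member of the Vgll family, is given beside them.

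The study compared 2 libraries labelled Control with 2 labelled Rbfox2 cKO. The cKO animals carried a floxed Rbfox2 gene, a tamoxifen-inducible Cre under Pax7 (Pax7CreERT2) and a Rosa26 EYFP reporter that marks the recombined cells, so deletion was limited to cells that had expressed Pax7. The labels do not state which of these alleles, or whether tamoxifen, the Control animals had, nor the age of the animals. Nor do they tie each library to an animal of its own, so the p-values rest on a spread between libraries that may be only technical. Levels are given in CPM, counts scaled to the library's total after TMM scaling, or in TPM, which also corrects for transcript length. Rbfox2 itself was measured at 131 (Control 1), 56.0 (Control 2), 40.0 (cKO 1) and 15.2 CPM (cKO 2), so its RNA was lower but not absent in cKO. Its fall, with a log2 fold change of -1.76 (SE 0.35), passed the edgeR quasi-likelihood test (adjusted p = 0.000252) with all libraries but not without any single one (-2.61 to -1.04). Of the 12 alternatives 4 called it, and the call was also lost with library totals only (-1.47), without a low-count filter (-1.81), under a minimum of 5 CPM in 2 libraries (-1.52) and with a GC term (-1.57). In limma on TPM the difference was -1.16 (adjusted p = 0.237). All 12 alternatives gave a negative value.

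Library totals were between 68884091 and 101997422 estimated counts. The cKO 1 library stood apart. The median TPM of all its genes was 0.771, compared with 0.312 to 0.437 in the other 3, and its TMM scaling factor was 1.27, against 0.876 to 0.965. Across all 38143 genes tested, 0.364% were called higher in cKO and 0.186% lower by edgeR at an adjusted p under 0.05, and 4.83% had an unadjusted p under 0.05. In limma 0.308% of 17210 genes were called in either direction, and 14.9% had an unadjusted p under 0.05. Of the 10 satellite cell markers examined edgeR called 0 (1 at an unadjusted p under 0.05, 0 called in DESeq2 or limma), and their summed level lay between 14026 and 15260 TPM in the 4 libraries. Sdc4 alone made up 77.5% to 79.9% of that sum, and the other 9 markers came to 3158 and 2855 TPM in Control and 3067 and 3438 TPM in cKO. The gene with the unadjusted p under 0.05 was Pax7, the defining marker and Cre driver, at 7.9 and 7.0 TPM in Control and 15.9 and 13.5 TPM in cKO (log2 fold change 0.84, SE 0.33, edgeR adjusted p = 0.556). Of 6 erythroid markers 5 rose in edgeR and 0 passed in DESeq2 or in limma, with sums of 337 and 763 TPM in Control and 1799 and 1471 TPM in cKO. Fibro-adipogenic, endothelial, Schwann, immune, tenocyte, smooth muscle and mature fibre lists had 0 of 38 tested members past the threshold in edgeR or DESeq2, with 1 at an unadjusted p under 0.05 in each. In limma 0 of 34 tested passed, with 6 at an unadjusted p under 0.05. The fibro-adipogenic sum was 171 and 188 TPM in Control and 288 and 196 TPM in cKO. None of these markers was at 0 in all libraries. The part of these cells and of cKO 1 in the results was not tested, beyond the values given beside each. In such bulk samples fewer cells of a type and less RNA per cell cannot be told apart.

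Yap and Taz are transcriptional coactivators that do not bind DNA themselves. They are held in the cytoplasm by the Hippo kinases Lats1 and Lats2, and when released they enter the nucleus and act through Tead factors at genes such as Ccn2, which encodes connective tissue growth factor. Vgll proteins bind the same Tead surface through a short Tondu motif and so compete with Yap and Taz or direct Tead factors to other genes. In muscle, Tead factors act on many contractile genes through the MCAT element, and Vgll2 is known as a Tead cofactor enriched in skeletal muscle.

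Rbfox proteins bind RNA at the hexamer UGCAUG, so the spliced transcripts were searched for TGCATG on the sense strand. Introns were not searched. In the principal GENCODE M21 transcript (GRCm38), 7 of 10 members held it: Wwtr1, Tead1, Tead3, Vgll2, Vgll3, Vgll4 and Ccn2. The shares of transcripts of like length that hold it, added over the 10 members, come to 6.08. Of the 15 matches, 10 lay in the 3′ UTR and 5 in the coding sequence. The Vgll2 transcript of 1650 bases had 2 matches, both in the 3′ UTR. Among 1818 protein-coding transcripts within 10% of that length, 34.7% held at least 1. Vgll4 had 4 matches in 2028 bases (41.4% of transcripts of like length held 1 or more) and Vgll3 had 4 in 7009 bases (86.3%). Yap1, Tead2 and Tead4 had 0 in this transcript. The 3′ UTR matches of the 3 Vgll genes are shown because these genes are compared most closely below, with TGCATG in capitals and up to 10 bases on either side. A match is a string of letters and not a measured binding site.
Vgll2 chr10:52028093-52028118 (+): gctgagagatTGCATGccatcatttg
Vgll2 chr10:52028391-52028416 (+): atactgaattTGCATGttctattatg
Vgll3 chr16:65862953-65862978 (+): tgaattctatTGCATGcaacatgcaa
Vgll3 chr16:65863579-65863604 (+): tattgagattTGCATGctaactcccc
Vgll3 chr16:65863823-65863848 (+): tttcataaatTGCATGctgtccctca
Vgll4 chr6:114862117-114862142 (-): cacaggaatcTGCATGgtttgcctga
Vgll4 chr6:114861725-114861750 (-): agtctgcattTGCATGtgtctgcctg
Vgll4 chr6:114861424-114861447 (-): tctgacatggTGCATGtctcaaaa

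For the DNA side, the Tead core motif GGAATG was searched on both strands in the RefSeq promoters of GRCm38.p6, which run from 250 bases before to 50 bases after a start site. The table had entries for 7 of the 10 members, and 5 of these had the motif in at least 1 entry: Yap1, Wwtr1, Tead3, Vgll3 and Vgll4. Of all 32851 promoter entries 14.7% held it, and of all 27025 genes with an entry 16.6% had it in at least 1. Wwtr1 has 2 entries and Tead3 has 3, and the share was 24.7% among genes with 2 entries and 33.3% among genes with 3. Tead2 and Vgll2 had no match in this window. The 250 bases before the start of Vgll2 and of Vgll3 are shown because Vgll2 is the member that was picked for its difference and Vgll3 is the Vgll gene with the highest level. Capitals mark the motif, which reads CATTCC where it lies on the minus strand.
Vgll2 chr10:52022252-52022501 (+): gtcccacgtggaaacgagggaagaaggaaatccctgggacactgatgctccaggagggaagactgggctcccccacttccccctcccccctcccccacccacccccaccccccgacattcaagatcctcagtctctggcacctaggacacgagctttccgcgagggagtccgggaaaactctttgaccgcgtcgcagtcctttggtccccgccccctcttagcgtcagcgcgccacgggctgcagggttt
Vgll3 chr16:65814939-65815188 (+): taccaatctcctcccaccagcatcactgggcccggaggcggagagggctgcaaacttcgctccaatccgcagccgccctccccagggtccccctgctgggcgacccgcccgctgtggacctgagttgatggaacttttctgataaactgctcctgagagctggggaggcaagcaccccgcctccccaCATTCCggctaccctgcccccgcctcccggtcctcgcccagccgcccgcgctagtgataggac

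The levels of the members differed widely, and their order was led by the target gene Ccn2. On the TPM scale, which is corrected for transcript length and so allows genes to be compared, Ccn2 had a mean of 3909 over the 4 libraries (3262 to 4588). Vgll3 followed at 150 (133 to 193), Vgll4 at 68.2 (57.3 to 81.8) and Wwtr1 at 51.9 (48.5 to 55.6). Vgll2 (6.19 to 66.4), Yap1 (21.3 to 24.7) and Tead1 (14.4 to 22.7) came next, with ranges that overlapped one another. Tead3 (3.37 to 6.81) and Tead2 (2.90 to 7.28) also overlapped, and Tead4 was lowest at 0.632 (0.384 to 1.02). Vgll1 stood at 0.0381 to 0.41 TPM and was below each of the 10 members in every library.

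**Figure D1:**
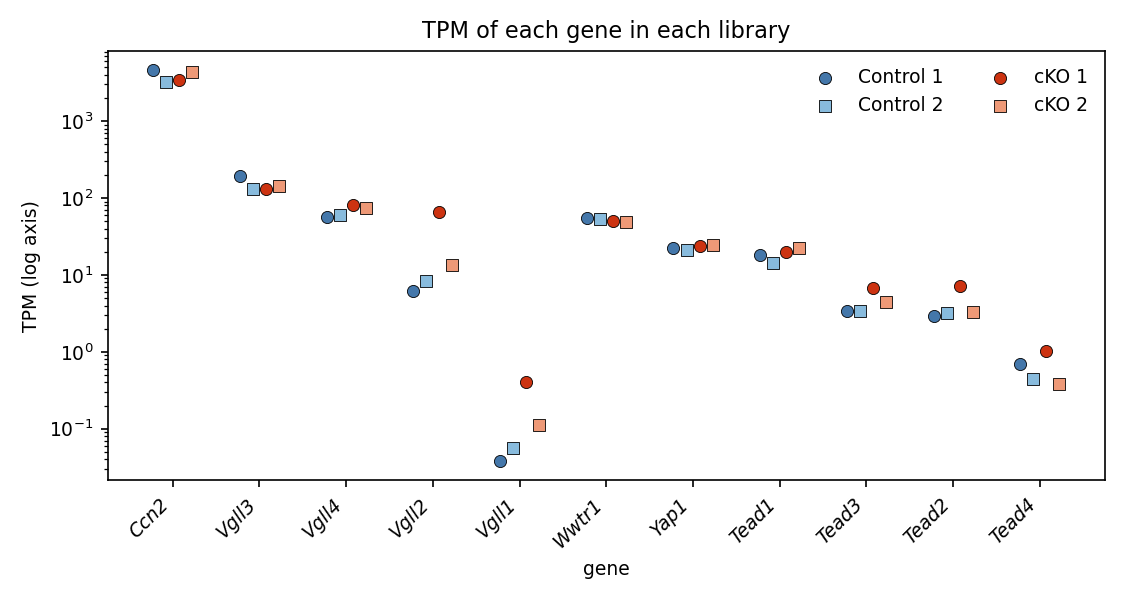
TPM of the 10 members and Vgll1 on a log axis, with 1 symbol per library. Vgll2 stands at 66.4 TPM in cKO 1 and at 13.3 in cKO 2, above 6.19 and 8.27 in Control, while the groups overlap for Ccn2 and Vgll3.

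Vgll2 (ENSMUSG00000049641.14; GRCm38 chromosome 10, 52022502 to 52028471, plus strand) was higher in both cKO libraries, and far more so in one of them. Its level was 5.71 CPM in Control 1, 7.28 in Control 2, 42.4 in cKO 1 and 13.1 in cKO 2. In TPM it stood at 6.19 and 8.27 in Control and at 66.4 and 13.3 in cKO, 9.19 and 1.85 times the Control mean. Rbfox2 was at 40.0 CPM in cKO 1, where Vgll2 was highest, and at 15.2 CPM in cKO 2, and a link was not tested. The groups of Vgll2 did not overlap on either scale, which in CPM held for 31.3% of all genes tested. Its cKO libraries lay further from each other than cKO 2 lay from Control. The log2 fold change was 2.10 (SE 0.33), from 6.49 ± 1.11 to 27.8 ± 20.7 CPM (SD, n = 2 each). That SE comes from a fit that pools the spread over genes, and it was also 0.33 for Yap1 and Tead3. It does not measure the gap between the cKO libraries of Vgll2. The log2 fold change was 1.02 without cKO 1 and 2.64 without cKO 2, and in limma on log2(TPM + 1) the difference was 1.93. These are the values that chose the gene, and nothing is tested with them.

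Vgll2 did not share sequence with another annotated gene in stretches of 50 bases, and no annotated gene overlapped it. Its mean transcript length, as the ratio of counts to TPM gives it, was 1548 and 1497 bases in Control and 1449 and 1531 bases in cKO. That is close to the longer of its 2 annotated transcripts, of 1650 and 966 bases, in all 4 libraries.

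The libraries differed from one another in a way that followed base composition, with the widest range in cKO 1. Among 10579 genes with a mean of at least 4 CPM, the median log2 ratio of cKO 1 to the Control mean was -0.49 for transcripts with up to 45% GC. It rose with each step of 5 points to 0.20 for the 353 genes above 60% GC. The same medians for cKO 2 ran from 0.10 to 0.24. Those of Control 1 over Control 2 fell from 0.13 to -0.24, so the Control libraries also differed by GC. The Vgll2 transcript has 61.0% GC, higher than 98.3% of these genes. Its log2 ratio was 2.69 in cKO 1 and 1.00 in cKO 2, the values that chose it. With a GC term for each library in the edgeR fit, chosen after the data were seen, the log2 fold change of Vgll2 was 1.90, against 2.10 without it. Over the 12 alternatives for the count analysis, this one included, it ran from 1.02 to 2.64.

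**Figure D2:**
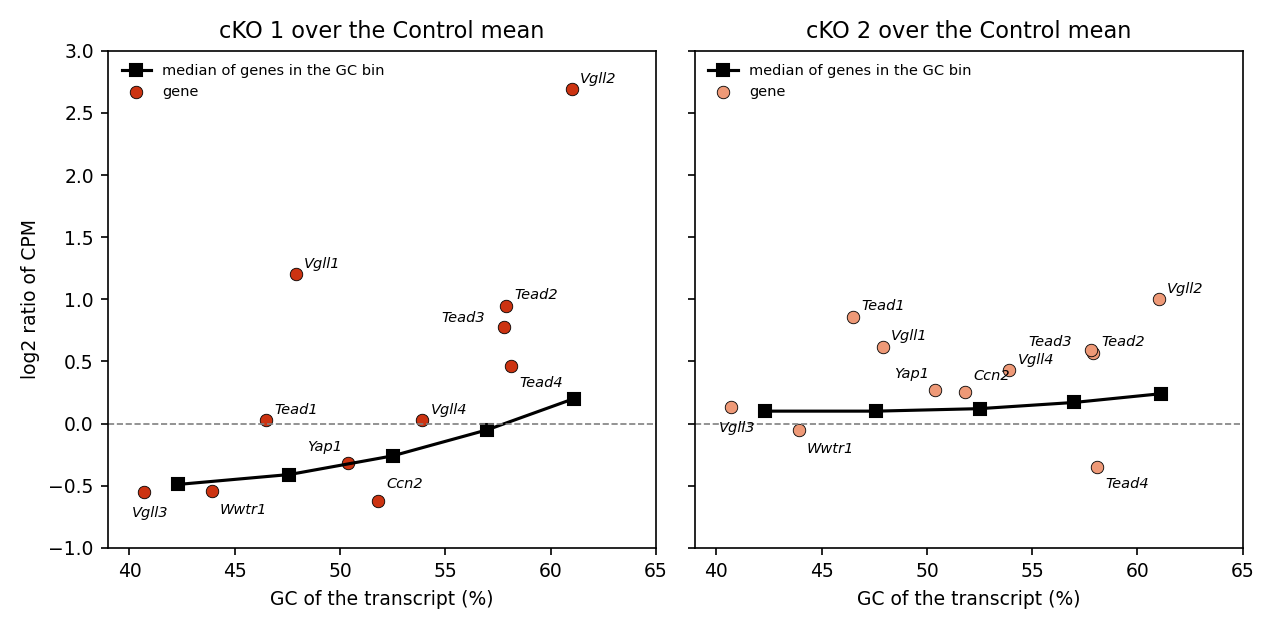
Log2 ratio of each cKO library to the Control mean, in CPM with 0.1 added, against the GC content of the principal transcript, for the 10 members and Vgll1. Squares join the medians of all genes with a mean of at least 4 CPM in bins of GC. The medians rise from -0.49 to 0.20 in cKO 1. Vgll2, which was chosen for its rise, lies above the medians in both panels, as do Tead1, Tead2, Tead3, Vgll4 and Vgll1.

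The genes whose profile over the 4 libraries lay nearest to that of Vgll2 were Riox1, Vat1, Rab24, Tlnrd1 and Wrnip1. Nearness was the Euclidean distance between log2 CPM centred on each gene's own mean, among 10578 genes with a mean of at least 4 CPM, over 4 libraries. The distances ran from 0.349 to 0.643. Riox1, a ribosomal oxygenase, had 8.43 and 8.53 CPM in the Control libraries and 44.8 (cKO 1) and 15.9 CPM (cKO 2) in the others. Rab24, a small GTPase linked to autophagy, had 1.71 and 2.13 CPM in Control libraries, 9.46 in cKO 1 and 4.46 in cKO 2. In each of the 5 genes cKO 1 was highest and cKO 2 next, and their transcripts had between 54.8% and 61.4% GC. They were chosen for this likeness, so their difference between groups is not a result.

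None of the 4 Tead genes passed the test in edgeR or DESeq2, nor in limma, where 3 were tested. EdgeR called 0.551% and limma 0.308% of all genes tested. At an unadjusted p under 0.05 were 2 in edgeR, 0 in DESeq2 and 1 in limma. Of all genes tested, 4.83% were at that level in edgeR and 14.9% in limma. Tead1, the most abundant Tead factor here, stood at 18.0 and 14.4 TPM in Control and 19.7 and 22.7 TPM in cKO. Both cKO libraries were above both Control libraries in TPM, as in 32% of genes with a mean of at least 1 TPM. In CPM (66.7 and 42.7 against 55.8 and 99.5) the groups of Tead1 overlapped. Its log2 fold change was 0.51 (SE 0.34, edgeR adjusted p = 1; 95% interval -0.16 to 1.17), with 0.88 without cKO 1 and -0.04 without cKO 2. Its mean transcript length was 6208 and 5038 bases in Control and 6443 and 6826 bases in cKO, and counts rise with that length while TPM do not.

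Tead3 stood at 3.37 and 3.42 TPM in Control and 6.81 and 4.48 TPM in cKO. Tead2 stood at 2.90 and 3.17 TPM in Control and 7.28 and 3.26 TPM in cKO. For both genes the cKO libraries lay above the Control libraries on either scale, and cKO 1 was the highest. In CPM, 18% of all genes tested had both cKO libraries above both Control libraries and 13.3% had both below, 31.3% together. In TPM, 32% of genes with a mean of at least 1 TPM had both above and 15.7% had both below. The log2 fold change was 0.70 (SE 0.33, 95% interval 0.06 to 1.34, adjusted p = 0.898) for Tead3 and 0.80 (SE 0.40, 95% interval 0.02 to 1.58, adjusted p = 0.991) for Tead2 in edgeR. Their transcripts have 57.8% and 57.9% GC. With the GC term the values were 0.61 and 0.70. Tead2 overlaps Cd37 on the opposite strand, and reads of the overlap may not have been separated.

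Tead4 stood at 0.689 and 0.438 TPM in Control and 1.02 and 0.384 TPM in cKO, with the cKO libraries on either side of the Control libraries (log2 fold change 0.13, SE 0.62, edgeR adjusted p = 1). Added up, the 4 Tead genes came to 25.0 and 21.4 TPM in Control and 34.8 and 30.8 TPM in cKO. Tead1 made up 72.1% and 67.2% of that sum in Control and 56.5% and 73.7% in cKO. The lower share in cKO 1 came with the higher Tead2 and Tead3 of that library.

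**Figure D3:**
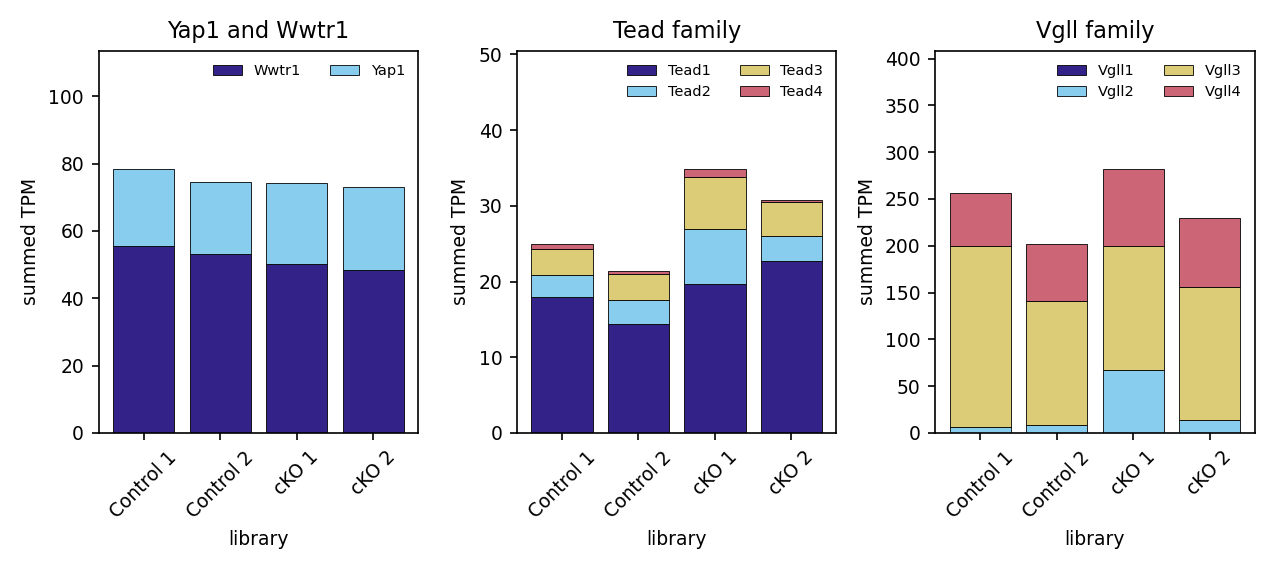
Summed TPM of Yap1 and Wwtr1, of the Tead genes and of the Vgll genes in each library, as stacked bars from 0. The sum of Yap1 and Wwtr1 is between 73.2 and 78.3 TPM in the 4 libraries, and the Vgll2 segment is largest in cKO 1.

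The coactivators did not pass the test either, in edgeR, DESeq2 or limma, and 0 of both had an unadjusted p under 0.05 in any of these. Yap1 stood at 22.7 and 21.3 TPM in Control and 24.1 and 24.7 TPM in cKO. Its log2 fold change was 0.01 (SE 0.33, 95% interval -0.65 to 0.66, edgeR adjusted p = 1), and its sign turned with DESeq2 size factors, with no filter, in DESeq2 and with the replicate number as a block. Wwtr1 stood at 55.6 and 53.1 TPM in Control and 50.2 and 48.5 TPM in cKO. Its cKO libraries were the lower ones on both scales, an order seen in 13.3% of genes tested in CPM and 15.7% in TPM. The log2 fold change of Wwtr1 was -0.27 (SE 0.35, 95% interval -0.96 to 0.41, edgeR adjusted p = 1). Without cKO 2 it was called at -0.61 (edgeR adjusted p = 0.0436), in a fit that called 5.39% of all genes, and without cKO 1, where 2.26% were called, it stood at -0.03. Without Control 1 the fit called 0.121% of all genes and without Control 2 0.135%, with no member among them.

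The balance between the coactivators can be read within each library, where scaling has no part. Yap1 made up 29.0% and 28.7% of the summed TPM of both in Control and 32.4% and 33.7% in cKO. The groups did not overlap, with means of 28.9% ± 0.212 and 33.0% ± 0.919 (SD, n = 2 each). An exact permutation test of 2 against 2 libraries cannot go below p = 0.333, so it cannot pass the threshold here. Yap1 has 50.4% and Wwtr1 43.9% GC. The part of GC in this share was not tested. In the 17210 genes with a mean of at least 1 TPM, 32% had both cKO libraries above both Control libraries and 15.7% had both below.

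Among the Vgll genes other than Vgll2, Vgll3 dominated. It stood at 193 and 133 TPM in Control and 133 and 143 TPM in cKO, with overlapping groups (log2 fold change -0.17, SE 0.37, 95% interval -0.90 to 0.56, edgeR adjusted p = 1). It stood at -0.62 without cKO 2, where the median of genes with a mean of at least 4 CPM was -0.38. Without cKO 1 it stood at 0.14, with that median at 0.13. Its mean transcript length was 4757 bases in Control 1 and between 6078 and 6316 bases in the other 3 libraries. Vgll4, which carries a pair of Tondu motifs and is known as an antagonist of Yap, stood at 57.3 and 60.2 TPM in Control and 81.8 and 73.6 TPM in cKO. Both cKO libraries were above both Control libraries on either scale, an order seen in 18% of genes tested in CPM and 32% in TPM. Vgll4 was at 1.39 and 1.25 times its Control mean in TPM. The log2 fold change in counts was 0.25 (SE 0.34, 95% interval -0.42 to 0.91, edgeR adjusted p = 1) and the limma difference in TPM was 0.40 (adjusted p = 0.218).

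Vgll1 had 0.063 CPM in Control 1, 0.0849 in Control 2, 0.299 in cKO 1 and 0.168 in cKO 2 (log2 fold change 1.64, SE 0.99, edgeR adjusted p = 1), a level at which its difference was not resolved. Of the summed Vgll TPM, Vgll3 held 75.2% and 65.9% in Control and 47.1% and 62.2% in cKO, while Vgll2 held 2.41% and 4.11% in Control and 23.6% and 5.78% in cKO. In cKO 1 the Vgll2 level of 66.4 TPM came to the range of Vgll4 and exceeded the sum of the 4 Tead genes. In the other 3 libraries it was below that sum.

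**Figure D4:**
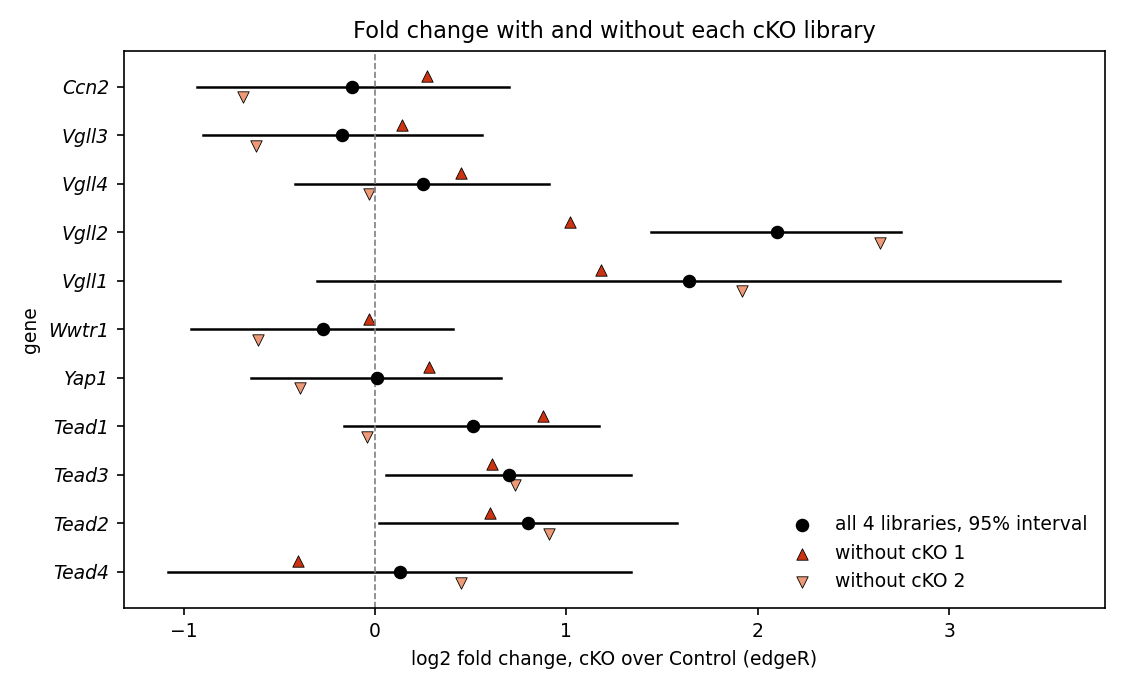
Log2 fold change of cKO over Control for the 10 members and Vgll1 from edgeR, with the 95% interval of the fit with all 4 libraries, and the value without each cKO library. The values of Ccn2, Vgll3, Vgll4, Wwtr1, Yap1 and Tead1 without cKO 1 lie above those without cKO 2. For Vgll2 (1.02 and 2.64), Tead2, Tead3, Tead4 and Vgll1 they lie below.

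Ccn2, the target gene among the members, stood at 4588 and 3262 TPM in Control and 3459 and 4325 TPM in cKO. Each group had 1 high and 1 low library, and the groups overlapped. The log2 fold change was -0.12 (SE 0.42, 95% interval -0.93 to 0.70, edgeR adjusted p = 1), with 0.27 without cKO 1 and -0.69 without cKO 2. Changes of either sign within that interval could not be told apart from no change. It overlaps Gm15270 on the opposite strand.

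Further Yap and Taz targets were read from a published signature of 22 genes that includes Ccn2. Of these 22, 0 rose and 0 fell past the threshold in edgeR, against 0.551% of all genes tested called in either direction. At an unadjusted p under 0.05 there were 3 in edgeR, 2 in DESeq2 and 4 of 19 tested in limma. Of all genes tested, 4.83% were at that level in edgeR and 14.9% in limma. DESeq2 and limma called 0. The median log2 fold change was 0.00, against 0.06 over all genes and -0.06 over genes with a mean of at least 4 CPM. Above 0 were 12, as were 55% of all genes tested, a background not matched for level. Ccn1, an immediate early matricellular protein, stood at 3089 and 2257 TPM in Control and 2231 and 2092 TPM in cKO (log2 fold change -0.45, SE 0.40, edgeR adjusted p = 1). Axl, a receptor tyrosine kinase, stood at 189 and 187 TPM in Control and 280 and 214 TPM in cKO (0.23, SE 0.37, edgeR adjusted p = 1). Amotl2 and Gadd45a, chosen after their values were seen, lay apart from each other, and neither passed. Amotl2, an angiomotin that binds Yap, stood at 99.4 and 102 TPM in Control and 68.9 and 57.2 TPM in cKO (-0.85, edgeR adjusted p = 0.69). Gadd45a, a stress gene that is also a target of other pathways, stood at 108 in both Control libraries and 350 and 166 TPM in cKO (0.98, edgeR adjusted p = 0.355).

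The Hippo pathway upstream of Yap and Taz gave the same count. Of 26 kinases, adaptors and junction proteins edgeR called 0 in either direction, against 0.551% of all genes tested, and DESeq2 and limma called 0. At an unadjusted p under 0.05 were 1 in edgeR, 1 in DESeq2 and 2 of 25 tested in limma, against 4.83% (edgeR) and 14.9% (limma) of all genes. The median log2 fold change was -0.09, against 0.06 over all genes and -0.06 over genes with at least 4 CPM. Above 0 were 11, as were 55% of all genes tested. The gene at an unadjusted p under 0.05 in edgeR was Amotl2 again. With Lats2 and Ptpn14 it is on both lists, so the lists are not independent. Frmd6, a FERM-domain protein upstream of the kinases, stood at 465 and 374 TPM in Control and 389 and 416 TPM in cKO (log2 fold change -0.19). Rassf1 stood at 124 and 131 TPM in Control and 131 and 118 TPM in cKO (-0.19). Mob1a, the scaffold of the Lats kinases, stood at 112 and 102 TPM in Control and 79.5 and 82.5 TPM in cKO (-0.52, SE 0.36, edgeR adjusted p = 1). In Mob1a both cKO libraries were below both Control libraries, as in 13.3% of genes tested in CPM and 15.7% in TPM. In Frmd6 and Rassf1 the groups overlapped.

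Contractile genes, on which Tead factors and Vgll2 are known to act, were listed by fibre type. Over all genes tested edgeR called 0.551%, the median log2 fold change was 0.06 and 55% were above 0. Of 10 slow fibre genes edgeR called 0, the median log2 fold change was -0.36 and 2 were above 0. Of 10 fast fibre genes edgeR called 0, the median was -0.46 and 1 was above 0. In CPM both cKO libraries lay below both Control libraries in 8 of these 10, against 13.3% of all genes tested, and in 3 of the 10 slow fibre genes. In TPM, Tnnt3 and Actn3 alone of the fast fibre genes had this order, and Tnnt1 and Tnnc1 alone of the slow fibre genes. Among all genes with a mean of at least 1 TPM the share was 15.7%. In edgeR each list had 1 gene at an unadjusted p under 0.05, against 4.83% of all genes tested, and DESeq2 and limma called 0. The summed fast fibre level was 75.8 and 74.6 TPM in Control, 71 TPM in cKO 1 and 44.6 TPM in cKO 2. The 7 mature fibre markers, 5 of which are also on the fast fibre list, summed to 68.4 and 64.7 TPM in Control and 68.6 and 42.5 TPM in cKO, and 5 of the 7 were lower in both cKO libraries in CPM. In TPM this held for Acta1 and Tnnt3 only. The part of fibre RNA in these values was not tested. Actn3, a fast fibre actinin, stood at 17.7 and 22.2 TPM in Control and 16.6 and 11.0 TPM in cKO (-0.72, SE 0.33, edgeR adjusted p = 0.851). Tnnc2 (-0.65), Tnnt3 (-0.45) and the slow fibre genes Tnnt1 (-0.46) and Atp2a2 (-0.22) had negative values, while Casq2 stood at 0.34.

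Immediate early and dissociation response genes were read because Ccn1 and Ccn2 also respond to the isolation of cells. Of 14 such genes edgeR called 0, DESeq2 called 0 and limma 1, while edgeR called 0.551% and limma 0.308% of all genes tested. At an unadjusted p under 0.05 were 4 in edgeR (4.83% of all genes tested), 1 in DESeq2 and 6 in limma (14.9% of all genes tested). The gene that limma called, named after its values were seen, was Hspa1a, a heat shock gene with a near-identical neighbour. It stood at 433 and 499 TPM in Control and 899 and 862 TPM in cKO. Of the 14 genes 10 were above 0, with a median of 0.09 and sums of 6296 and 8145 TPM in Control and 9727 and 7814 TPM in cKO. Egr1 stood at 1076 and 1335 TPM in Control and 1466 and 1144 TPM in cKO (log2 fold change -0.05). Junb stood at 0.09 and Dusp1 at 0.01, and the sign of all 3 changed with the setting. The part of this response in the levels of Ccn1 and Ccn2 was not tested.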

How the data were processed

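RNA-seq of 4 libraries was used, 2 Control and 2 Rbfox2 cKO, with SMART-Seq cDNA from 10 ng of RNA, per the labels' protocols. The build GRCm38 and the tools StringTie 1.3.6 and HISAT2 2.1.0 are listed, with no role, in the submitters' processing notes. Strand setting, annotation release and filters: not given in the sources used here. The deposited expected counts are whole numbers per gene, and the deposited TPM are corrected for transcript length by the authors. In each library, of the genes with 1 transcript and over 200 counts, 98.7% to 98.9% fitted count = constant x TPM x length within 1%, and the constant gave the mean transcript lengths. Totals of 68884091 to 101997422 counts set the precision, and TPM carry no depth of their own.

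The count comparison used edgeR 4.0.16 under R 4.3.3 (TMM, filterByExpr, robust quasi-likelihood test, Benjamini-Hochberg over all genes, threshold 0.05). For TPM, limma 3.58.1 was run on log2(TPM + 1) in genes averaging at least 1 TPM, a scale that understates changes of low genes. Intervals are t intervals of the quasi-likelihood fit. Their SE pool the spread over genes and say little of the spread between a single gene's own libraries. The alternatives were DESeq2 1.42.0, other scalings and filters, a length offset, a block for the replicate number, leaving out single libraries and, chosen after the data were seen, a GC term. Scripts were tested on simulated data. The members and lists were chosen with earlier results of these data known. Genes named are the 10 members, Vgll1, Rbfox2, for each list without a call its 3 members with the highest mean TPM, the 5 genes nearest to Vgll2, and those said to be chosen after their values were seen. GENCODE M21 gave coordinates and transcripts.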

Additional observations from a re-analysis of the deposited data

How the results depend on the processing

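With 2 libraries a group, single libraries and scaling set most values. The number of genes called by edgeR, 210, was 119 with DESeq2 size factors, 28 without a low-count filter, 14 under a minimum of 5 CPM in 2 libraries, 93 in DESeq2, 323 with the GC term and 51 to 2267 with 1 library left out. In limma, 53 genes became 102 with a pseudocount of 0.1, 808 with a mean TPM of at least 0.1, 404 with no filter and 18 to 608 with 1 library left out. Vgll2 was chosen by its difference in these libraries, so its calls are no test and are not counted. Of the other 9 members edgeR and DESeq2 called 0 with all libraries, and limma called 0 of the 8 tested. With 1 library left out 0 to 3 were called: 0 without either Control library, 1 without cKO 1 and 3 (Vgll2, Wwtr1 and Vgll3) without cKO 2, where the lone library of an arm is assumed to vary like the others. The replicate number as a block gave 96 genes, 86 of them shared with the 210, with Vgll2 at 1.87, and called none of the other 9 members. Same-numbered libraries share a code in the labels whose meaning is not stated, and their deviations correlated at -0.122 over 38143 genes. The split of calls, 66.2% higher with all libraries, was 55.5% with DESeq2 size factors and 55.4% with the GC term. The median over all genes moved from 0.06 to 0.25 with library totals and to 0.20 with the GC term.

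The direction of 14 values changed under some alternative, and the cause was not tested. Yap1 was at -0.05 with DESeq2 size factors, -0.01 with no filter, -0.03 in DESeq2, -0.02 with the replicate block and -0.39 to 0.28 with 1 library left out. With 1 library left out, the range was -0.04 to 0.88 for Tead1, -0.40 to 0.45 for Tead4, -0.62 to 0.14 for Vgll3 (-0.48 to 0.06 in limma), -0.03 to 0.45 for Vgll4 and -0.69 to 0.27 for Ccn2. It was -0.61 to 0.11 for Frmd6, -0.48 to 0.01 for Rassf1, -0.81 to 0.17 for Atp2a2, -0.03 to 0.60 for Casq2, -0.21 to 0.09 for Egr1, -0.21 to 0.42 for Junb and -0.25 to 0.20 for Dusp1. Egr1 was at 0.11 with library totals and 0.07 under the 5 CPM minimum, Junb at -0.16 with the GC term, and Dusp1 at -0.04 with DESeq2 size factors, -0.01 with no filter, -0.03 in DESeq2 and -0.01 with the length offset. Tead2 and Tead3 were above 0 and Wwtr1 below 0 in each alternative that tested them. Vgll2 was also above 0 in each, which is no test, since it was chosen for being higher in cKO in these libraries.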
